A study of Mus musculus with 16 samples.

Results

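The 10 genes described here encode heat shock chaperones: the stress-inducible HSP70 genes Hspa1a and Hspa1b, the constitutive HSP70 gene Hspa8, the HSP110 gene Hsph1, the J-domain genes Dnaja1 and Dnajb1, the HSP90 genes Hsp90aa1 and Hsp90ab1, the small heat shock protein gene Hspb1 and the co-chaperonin gene Hspe1. They were chosen by name, as 10 of the 54838 genes of the deposited count table, and all 10 were among the 14865 genes with enough counts to be tested. The product of Hspe1 works in mitochondria and those of the other 9 in the cytosol and nucleus, so the set is called heat shock chaperone genes and not cytosolic ones. RNA was sequenced from liver tumors and from the liver around them (peri-tumor tissue) of 4 control mice and of 4 mice treated with a traditional Chinese medicine (TCM) decoction. Each mouse gave 1 library of each tissue, which makes 4 libraries in each of 4 groups: control peri-tumor, control tumor, TCM peri-tumor and TCM tumor. All 8 mice, controls included, carry the genotype HrasG12V, an active form of the Ras oncogene. The labels add "3 months" to every sample without saying whether this is an age or a length of treatment. The treatment protocol names Ras-transgenic mice together with mice in which tumors were induced by the carcinogen DEN, and does not state whether the mice sequenced here received DEN. The sources used here name neither the promoter of the transgene nor what the decoction contains and at which dose it was given. 

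Heat shock proteins bind unfolded or partly folded proteins and keep them from aggregating. HSP70 proteins bind and release short stretches of a client in a cycle driven by ATP: J-domain proteins such as the products of Dnaja1 and Dnajb1 bring the client and start ATP hydrolysis, and nucleotide exchange factors such as the product of Hsph1 reset the cycle. HSP90 takes over clients at a later stage, among them kinases and steroid hormone receptors, with the help of co-chaperones. When unfolded proteins accumulate, the transcription factor HSF1 forms trimers that bind heat shock elements, repeats of the unit GAA and its reverse complement TTC in alternating direction, and raises transcription of the inducible members. Liver cells, which make large amounts of secreted protein, express the constitutive members at high levels.

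Promoter sequences of RefSeq (build GRCm38.p6), each covering 250 bases before and 50 bases after an annotated start, were at hand for 7 of the 10 genes. Those of 6 genes, all but Dnaja1, are shown. For Hsph1 and Dnajb1 the first of several annotated starts was taken. Capitals mark every pair of adjoining alternating units (GAANNTTC or TTCNNGAA, each of which is its own reverse complement), all 5′ to 3′ on the gene's strand. The windows lie at chr17:34972107-34972406 (Hspa1a, minus strand), chr17:34959189-34959488 (Hspa1b, minus strand), chr5:149636287-149636586 (Hsph1, minus strand), chr5:135887669-135887968 (Hspb1, plus strand), chr8:83607925-83608224 (Dnajb1, plus strand) and chr1:55087898-55088197 (Hspe1, plus strand).
Hspa1a: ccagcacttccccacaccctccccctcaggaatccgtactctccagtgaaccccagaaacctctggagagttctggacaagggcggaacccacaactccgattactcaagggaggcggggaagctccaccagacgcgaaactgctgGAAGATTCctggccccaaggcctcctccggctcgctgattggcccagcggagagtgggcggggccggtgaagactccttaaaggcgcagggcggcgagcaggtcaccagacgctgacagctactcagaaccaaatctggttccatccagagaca
Hspa1b: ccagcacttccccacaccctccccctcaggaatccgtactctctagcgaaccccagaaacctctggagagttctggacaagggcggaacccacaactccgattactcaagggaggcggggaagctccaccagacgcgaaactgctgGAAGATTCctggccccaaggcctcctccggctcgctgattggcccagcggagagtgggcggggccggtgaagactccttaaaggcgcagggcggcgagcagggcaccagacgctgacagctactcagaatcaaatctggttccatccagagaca
Hsph1: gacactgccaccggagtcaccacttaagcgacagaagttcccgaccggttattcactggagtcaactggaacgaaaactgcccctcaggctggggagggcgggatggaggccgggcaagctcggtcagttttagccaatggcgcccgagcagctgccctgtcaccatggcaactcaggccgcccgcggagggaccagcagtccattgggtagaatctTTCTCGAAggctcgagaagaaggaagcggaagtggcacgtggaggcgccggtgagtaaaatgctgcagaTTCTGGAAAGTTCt
Hspb1: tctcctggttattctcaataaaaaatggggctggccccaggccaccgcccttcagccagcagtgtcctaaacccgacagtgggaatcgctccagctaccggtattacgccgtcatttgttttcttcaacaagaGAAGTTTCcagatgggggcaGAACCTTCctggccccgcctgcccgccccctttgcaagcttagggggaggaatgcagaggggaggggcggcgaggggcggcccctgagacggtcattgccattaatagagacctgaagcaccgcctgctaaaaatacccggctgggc
Dnajb1: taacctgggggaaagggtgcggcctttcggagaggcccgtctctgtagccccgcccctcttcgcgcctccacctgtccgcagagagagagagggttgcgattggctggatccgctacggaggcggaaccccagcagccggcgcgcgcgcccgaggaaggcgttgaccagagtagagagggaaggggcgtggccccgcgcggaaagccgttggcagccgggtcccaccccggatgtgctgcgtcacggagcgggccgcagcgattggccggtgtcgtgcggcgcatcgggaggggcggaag
Hspe1: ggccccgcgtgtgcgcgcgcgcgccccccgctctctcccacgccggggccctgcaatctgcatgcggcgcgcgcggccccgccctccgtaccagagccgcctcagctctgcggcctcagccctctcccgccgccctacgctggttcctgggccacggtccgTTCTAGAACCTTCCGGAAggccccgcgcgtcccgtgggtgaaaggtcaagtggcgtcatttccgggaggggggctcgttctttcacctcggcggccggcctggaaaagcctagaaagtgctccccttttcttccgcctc
The windows of Hspa1a and Hspa1b were identical at 296 of 300 bases (98.7%), and both held the pair GAAGATTC at positions 147 to 154, counted from 1 at the 5′ end. A run of 3 alternating units (GAANNTTCNNGAA or TTCNNGAANNTTC, which overlap the pairs) was found in the windows of Hsph1 and Hspe1 only, 2 of the 7 genes, against 0.603% of all 32841 windows and 0.663% of the 27018 genes with one. In Hspe1 such units joined into 1 longer run at positions 162 to 179. In Hsph1 the run lay at positions 287 to 299, after the annotated start. At least 1 pair of units was found in 6 of the 7 genes, all but Dnajb1, whereas 15.1% of all windows and 17.0% of genes held one. These matches are letters in a window and are not evidence of binding, and the windows hold nothing about elements farther away.

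In the FPKM values deposited by the authors (reads scaled by gene length and library total), averaged over all 16 libraries, Hsp90ab1 stood highest at 137, followed by Hspa8 at 63.4 and Hspe1 at 46.8. Hspa1b had 30.5, Hsp90aa1 19.6, Dnajb1 14.2, Dnaja1 8.34, Hspb1 7.12, Hsph1 6.87 and Hspa1a 3.72 FPKM. The length behind these values equalled the summed length of all distinct annotated exons, overlapping ones counted repeatedly, in 11498 of 11970 genes compared (96.1%, within 1 base, GENCODE M21), so it is longer than the longest transcript of genes with many isoforms. It was 2.92 times that length for Hspa8 and 2.37 times for Hsph1, against 1.07 times for Dnajb1. Divided by the longest transcript instead, a choice made after seeing the data, the same reads gave 314 for Hsp90ab1, 186 for Hspa8, 84.3 for Hspe1, 39.3 for Hsp90aa1 and 30.5 for Hspa1b in the same unit. On that scale Dnaja1 had 20.5, Hsph1 16.3, Dnajb1 15.1, Hspb1 14.0 and Hspa1a 3.72. The first 3 places and the last were thus the same on both scales, while Hsp90aa1 and Hspa1b exchanged places and so did genes among Dnaja1, Hsph1, Dnajb1 and Hspb1. The ranges of these 4 genes over the libraries overlapped on both scales, as did those of Hsp90aa1 and Hspa1b. Overlapping ranges do not give the order within a library. On the deposited scale Dnajb1 stood above Hsph1 in every library (21.6 against 11.9 in control peri-tumor library 1, 6.29 against 1.44 in TCM tumor library 4). Per longest transcript this pair changed order between the same 2 libraries (23.1 against 28.3 and 6.73 against 3.42).

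Several of the genes have near-identical copies in the genome, which bears on what their counts mean. Of the 50-base words in the longest transcript, 66.3% of Hspa1a and 62.3% of Hspa1b also occur in other genes, and as the pair are near-identical copies their single values are uncertain. Processed pseudogenes of Hspa8, led by Gm15459 and Gm8355, held 87.0% and 31.0% as many counts as Hspa8 itself. For Dnaja1 the pseudogenes Gm15542 and Gm7816 held 103% and 31.3%, for Hsp90aa1 Gm12346 and Gm5844 held 40.4% and 9.40%, and for Hspb1 the pseudogene Hsp25-ps1 held 61.9%. Hsph1 shared no word with another gene, and Dnajb1, Hsp90ab1 and Hspe1 shared 0.441%, 4.49% and 8.20%. Counts over a pseudogene cannot be told apart from reads of the parent gene that were placed there. Hspa1a also overlaps Gm20481 on the opposite strand over 19.0% of its exon bases, Dnaja1 overlaps Smu1 over 7.05% and Hspe1 overlaps Hspd1 over 7.60%; the sources used here do not say whether strand was used in counting.

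**Figure D1:**
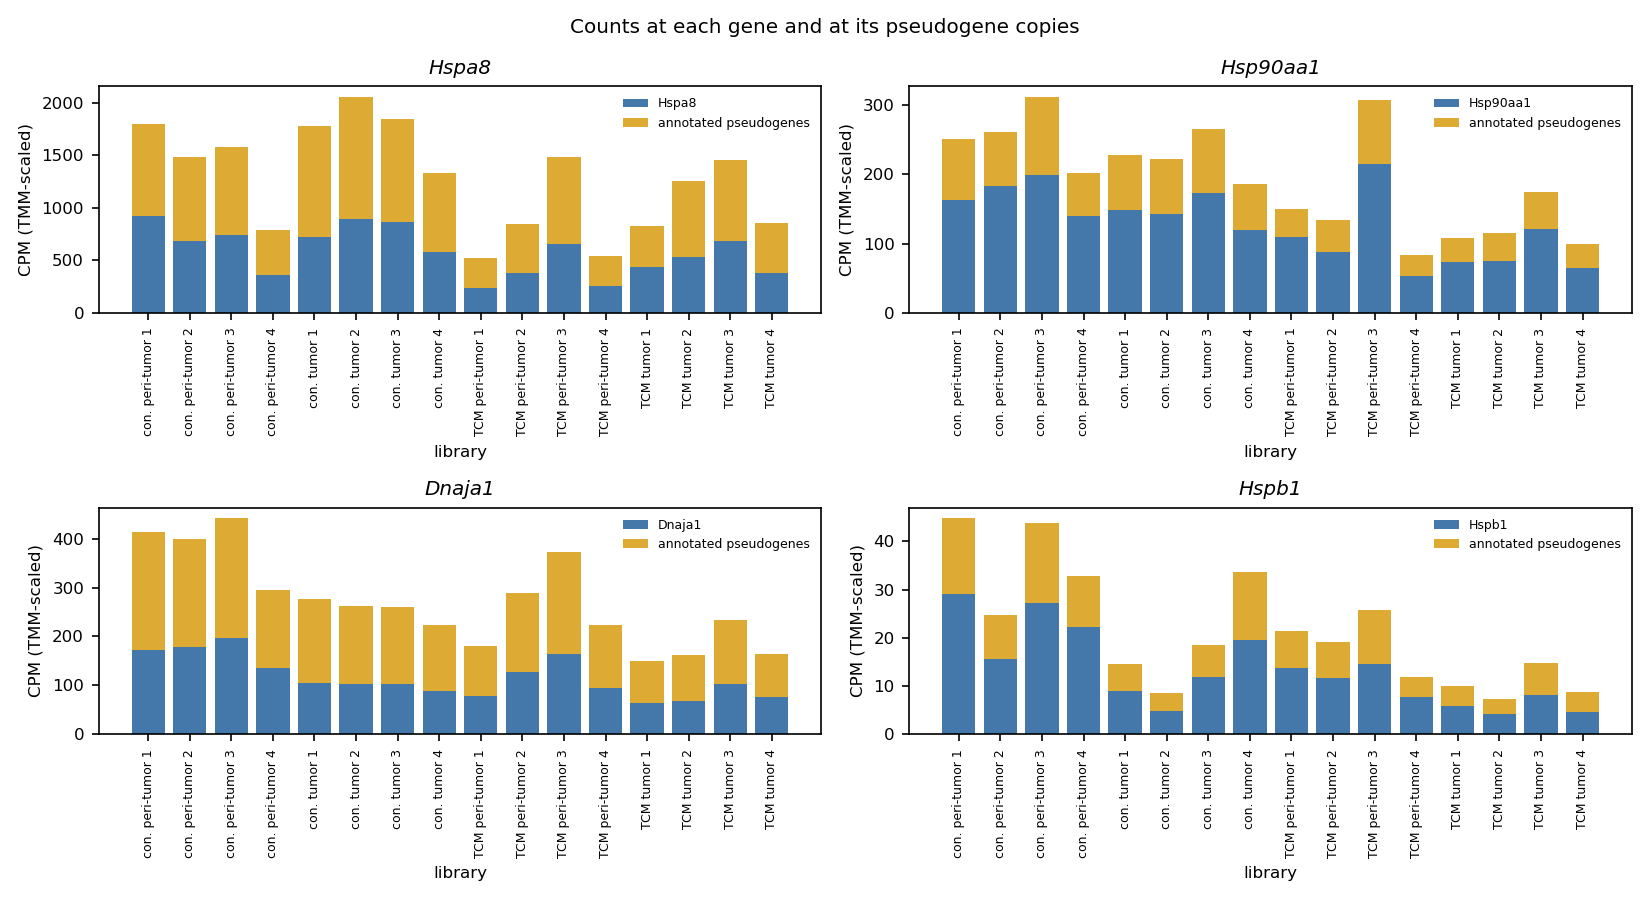
CPM (counts scaled to a common library total) of 4 chaperone genes (blue) and, stacked on them, of their annotated pseudogenes (yellow) in each of the 16 libraries. Over the libraries the pseudogenes of Hspa8 held 90.7% to 146% as many counts as the gene itself, and those of Hsp90aa1 37.6% to 56.2%. Those of Dnaja1 held 117% to 162% and that of Hspb1 47.5% to 89.6%.

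Library totals were 13947483 to 16194224 counts. The fetal liver gene Afp, a marker of liver tumors, had 257 to 944 CPM in the 8 tumor libraries against 2.25 to 18.6 in the 8 peri-tumor libraries. Hepatocyte markers were high in all libraries (summed CPM of 11 markers 79830 to 188300), though single markers differed between tissues as given further on. One mouse stood apart in the chaperone genes: TCM mouse 3 was the highest of its group for 9 of 10 genes in peri-tumor tissue and for 10 of 10 in tumor. Its peri-tumor library also held 18.6 CPM of Afp and 8.16 CPM of the proliferation gene Mki67, against 2.25 to 3.90 and 1.32 to 3.20 in the other TCM peri-tumor libraries, and the highest share of mitochondrial counts of all 16 libraries (7.46%). The CPM of that library were scaled with the lowest TMM factor of all 16, 0.834. In deposited FPKM, TCM mouse 1 was above TCM mouse 3 for Hspb1 in peri-tumor tissue (7.08 against 6.67) and for Hspe1 in tumor (51 against 45.5). The other top ranks of TCM mouse 3 held. Control mouse 4 was the lowest of its group for 6 genes in peri-tumor and 7 in tumor tissue but the highest for Hspa1a and Hspa1b in both. The comparisons below are therefore also given without these mice where that changes a call.

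**Figure D2:**
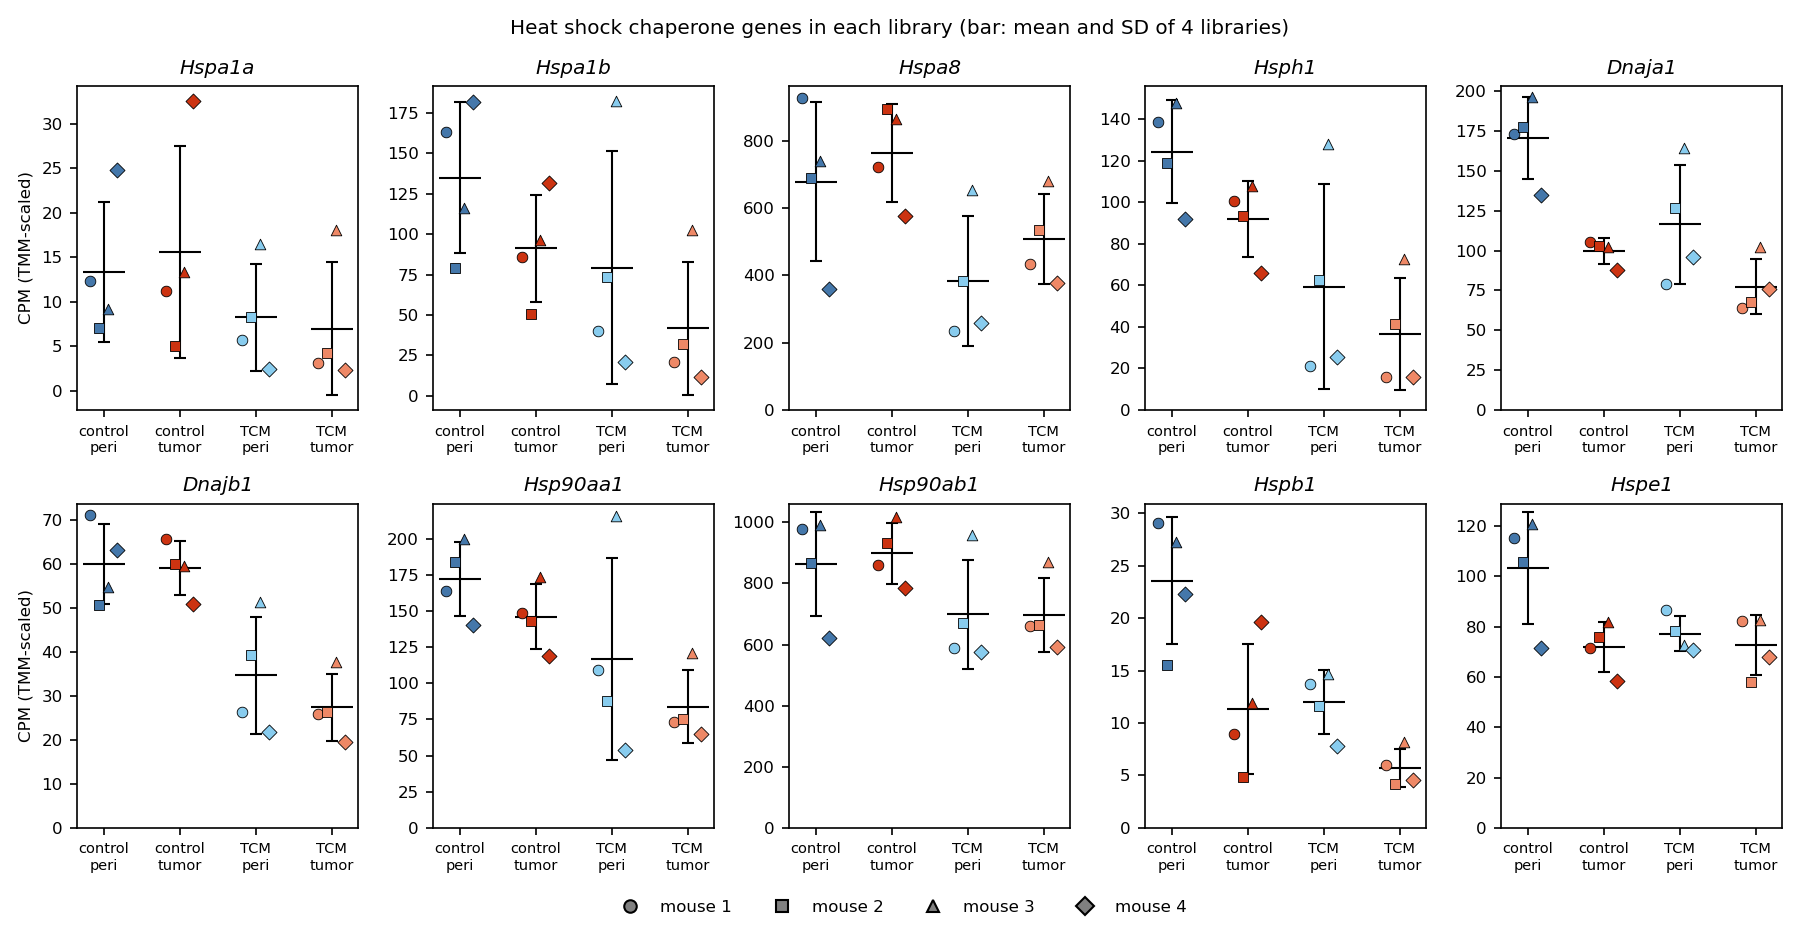
CPM of each gene in each library, 1 panel per gene with its own axis. Marker shapes give the mouse number (control and TCM mice of the same number are different animals), and bars give the mean and SD of 4 libraries. TCM mouse 3 lies at the top of both TCM groups in every panel except Hspe1 in peri-tumor tissue, where mouse 1 is highest.

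Tumors of control mice had less Dnaja1, Hspb1 and Hspe1 RNA than the peri-tumor liver of the same mice, by 1.44 to 2.08 times, and none of the 10 genes rose. Dnaja1, a J-domain partner of HSP70, had 173, 178, 197 and 135 CPM in the control peri-tumor libraries of mice 1 to 4 and 105.6, 103, 102.5 and 88.1 in their tumors. Every tumor library thus lay below every peri-tumor library, as 18.8% of all tested genes did in this direction. The fall was from 171 ± 25.9 to 99.7 ± 7.91 CPM (mean ± SD, n = 4), a log2 fold change of -0.77 ± 0.20 (SE), with an adjusted p of 0.00552 (edgeR quasi-likelihood test, Benjamini-Hochberg over all tested genes, used for every adjusted p of this section). The Dnaja1 pseudogenes held 118% to 139% as many counts as the gene in control peri-tumor libraries and 154% to 162% in control tumors. The size of the fall thus depends on where such reads were placed. Over the alternatives run, pseudogene counts added among them, the log2 fold change of Dnaja1 was -0.87 to -0.60, called in 18 of 18. Hspb1, the small heat shock protein HSP25 that holds unfolded clients without ATP, had 29.1, 15.5, 27.2 and 22.3 CPM in peri-tumor tissue and 8.94, 4.85, 11.9 and 19.6 in tumor. The tumor of mouse 4 reached into the peri-tumor range and the others lay below it, and the log2 fold change was -1.05 ± 0.34 (SE) (edgeR adjusted p = 0.0199). Hspe1, the lid of the mitochondrial chaperonin, had 115, 105.8, 121 and 71.5 CPM in peri-tumor tissue and 71.4, 75.8, 82.0 and 58.6 in tumor. Again the groups overlapped only through mouse 4, whose peri-tumor value was low, and Hspe1 fell by 0.52 on the log2 scale (edgeR adjusted p = 0.0156).

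These 3 calls among 10 genes stand beside 43.2% of all tested genes called in this comparison and 21.2% called lower; all 3 were lower calls. The median log2 fold change of the 10 genes was -0.34, against 0.00 over all tested genes. The other 7 genes were not called, with log2 fold changes from -0.56 (Hspa1b) to 0.23 (Hspa1a). Hspa8, Hsp90ab1 and Dnajb1 had values of 0.17 ± 0.32 (SE), 0.06 ± 0.19 (SE) and -0.02 ± 0.23 (SE). Hspb1 lost its call without control peri-tumor library 1 (edgeR adjusted p = 0.0565), control peri-tumor library 3 (0.0501) or control tumor library 1 (0.0541), and Hspe1 without control peri-tumor library 3 (0.0546), whereas Dnaja1 kept its call whichever library was left out.

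Since each tumor has its own surrounding liver, the same counts were also fitted with the mouse as a block, which compares the tissues within mice. Hspa1b and Hsph1 were then called lower in tumor in addition. Hspa1b, the inducible HSP70 with the larger share of the counts of its pair, had 163, 79.0, 116 and 182 CPM in control peri-tumor tissue and 86.2, 50.9, 96.4 and 131 in control tumor. The groups overlap widely, but each of the 4 tumors lay below its own peri-tumor tissue, by -0.92 to -0.27 on the log2 scale. Hsph1, the exchange factor of HSP70, had 139, 119, 148 and 92.1 CPM in peri-tumor and 100.7, 93.2, 107.6 and 66.1 in tumor tissue. It was likewise lower in 4 of 4 tumors, by -0.48 to -0.35. With the block the log2 fold changes were -0.57 for Hspa1b (edgeR adjusted p = 0.00275) and -0.44 for Hsph1 (edgeR adjusted p = 0.00251). That made 5 of 10 genes lower, where the blocked fit called 21.5% of all genes lower, and 0 higher.

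In TCM mice, Hspb1 and Dnaja1 also fell in tumor, by 2.08 and 1.51 times. Hspb1 had 13.8, 11.6, 14.7 and 7.80 CPM in TCM peri-tumor tissue and 5.96, 4.22, 8.22 and 4.58 in TCM tumor. Only the tumor of mouse 3 exceeded the lowest peri-tumor value, and the log2 fold change was -1.06 ± 0.35 (SE) (edgeR adjusted p = 0.0302). Dnaja1 had 79.1, 127, 164 and 95.7 CPM in peri-tumor tissue and 63.7, 67.6, 101.99 and 76.0 in tumor, with overlap between the groups but a lower tumor value in 4 of 4 mice. Its log2 fold change was -0.59 ± 0.20 (SE) (edgeR adjusted p = 0.033). None of the 10 genes had tumor libraries that all lay below all peri-tumor libraries (16.6% of all tested genes did). The calls are 2 of 10 genes, where 32.9% of all tested genes were called and 15.6% called lower. Hspe1 had 86.5, 78.3, 72.8 and 70.9 CPM in peri-tumor and 82.3, 57.9, 82.5 and 68.0 in tumor tissue, groups that overlapped although the tumors of mice 2 and 4 lay below every peri-tumor library (-0.09 ± 0.16 (SE) on the log2 scale, not called).

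With the mouse as a block, 4 of 10 genes were lower in TCM tumors (16.3% of all genes were), Hspa1b and Hsph1 being added. Hspa1b had 39.9, 73.6, 182 and 21.2 CPM in TCM peri-tumor and 21.03, 32.2, 102.4 and 11.4 in TCM tumor tissue. Mouse 3 was several times above mice 1 and 4 in both tissues, and within each of the 4 mice the tumor was lower, by -1.19 to -0.83 on the log2 scale. Hsph1 had 21.2, 62.8, 128 and 25.6 CPM in peri-tumor and 15.6, 41.5, 72.6 and 15.9 in tumor tissue, with mouse 3 again highest in both and a lower tumor value in 4 of 4 mice. The blocked log2 fold changes were -0.96 for Hspa1b (edgeR adjusted p = 0.000246) and -0.64 for Hsph1 (edgeR adjusted p = 0.000491). Hspa8, the constitutive HSP70 that also uncoats clathrin vesicles, had 234, 383, 654 and 258 CPM in TCM peri-tumor and 434, 535, 681 and 377 in TCM tumor tissue. It was higher in the tumor of 4 of 4 mice, yet it missed the threshold in the blocked fit (log2 fold change 0.50, edgeR adjusted p = 0.0536). Without the block, the Hspb1 call was lost in 6 of 8 fits that left out 1 library (edgeR adjusted p up to 0.0884, without TCM tumor library 2) and the Dnaja1 call in 5 of 8 (up to 0.136, without TCM peri-tumor library 3); adding the counts of Hsp25-ps1 to Hspb1 also ended its call (edgeR adjusted p = 0.0533).

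**Figure D3:**
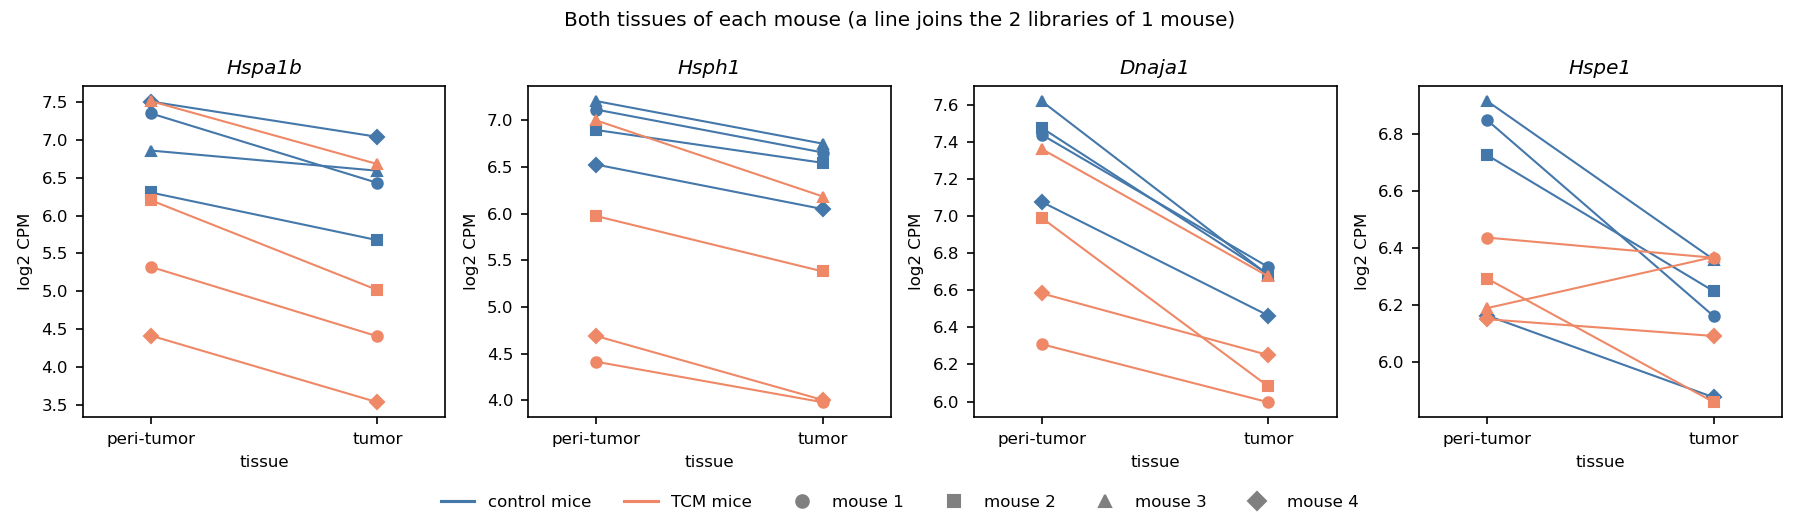
Log2 CPM of Hspa1b, Hsph1, Dnaja1 and Hspe1 in both tissues, a line joining the libraries of 1 mouse (blue, control; orange, TCM; marker shapes, mouse number). All 8 lines go down in tumor for Hspa1b, Hsph1 and Dnaja1, whereas for Hspe1 they go down in 4 of 4 control and 3 of 4 TCM mice.

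The tumor effect did not differ detectably between treatments for any of the 10 genes. The test of the difference (TCM minus control) called 0 of 10, where it called 1.11% of all tested genes, and 0 of 10 had an unadjusted p under 0.05 in edgeR, where 17.5% of all genes had. DESeq2 and limma-voom also called 0 of 10. The log2 differences ran from -0.47 ± 0.98 (SE) for Hspa1a to 0.44 ± 0.23 for Hspe1 (edgeR adjusted p = 0.34 for Hspe1). The standard errors of these differences were 0.227 to 0.979.

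Peri-tumor liver of TCM mice had lower fitted levels of 10 of 10 genes than that of control mice (50.4% of all tested genes were lower), by 1.24 to 2.10 times, but Dnajb1 was the only gene whose fall passed the edgeR test. Other methods called more: DESeq2 called 2 of 10 genes, edgeR with a block of the replicate number 5 and weighted limma-voom 8. Limma-voom also called more of all tested genes here than edgeR did, as given in the closing section. The shares of all genes called by DESeq2 and by the block are not given here. Their counts are therefore not read as above or below such a share. The block of the replicate number pairs control and TCM mice that share only a number. Dnajb1, the J-domain protein that starts HSP70's work on aggregates, had 71.1, 50.7, 54.8 and 63.1 CPM in control and 26.4, 39.3, 51.4 and 21.9 in TCM peri-tumor tissue. The TCM libraries of mice 1, 2 and 4 lay below every control library, and that of mouse 3 was just above the lowest control. The mean fell from 59.95 ± 9.07 to 34.7 ± 13.3 CPM (SD, n = 4), a log2 fold change of -0.79 ± 0.23 (SE) (edgeR adjusted p = 0.0368). This is 1 of 10 genes, where 14.1% of all tested genes were called and 7.35% called lower. The call was fragile: it was lost in 6 of 8 fits that left out 1 library, with an edgeR adjusted p of up to 0.104 (without TCM peri-tumor library 1), with no filter on low counts (0.0559) and with only the groups compared in the fit (0.0665).

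At an unadjusted p under 0.05, 5 of the 10 genes were lower (Hspa8, Hspb1, Dnaja1, Dnajb1 and Hspe1), where 15.2% of all tested genes were, and the median log2 fold change of the 10 was -0.73 against 0.00 over all genes. Hspa8 had 925, 689, 739 and 358 CPM in control peri-tumor tissue, against the 234, 383, 654 and 258 of TCM mice given above. The groups overlapped through the low value of control mouse 4 (log2 fold change -0.83 ± 0.32 (SE), edgeR adjusted p = 0.0984). Hspb1 was the only one of the 10 whose groups did not overlap, at 7.80 to 14.7 CPM in TCM against 15.5 to 29.1 in control tissue, where 8.86% of all tested genes lay apart in this direction, and it was not called (-0.98 ± 0.34 (SE), edgeR adjusted p = 0.0652). Hsph1 had the lowest log2 fold change, -1.07 ± 0.53 (SE), with a wide gap between mice. Its TCM libraries of mice 1, 2 and 4 were at 21.2, 62.8 and 25.6 CPM, under every control library. That of mouse 3 was at 128, within the control range of 92.1 to 148. The HSP90 genes had log2 fold changes of -0.56 ± 0.31 (SE) for Hsp90aa1, the inducible form, and -0.31 ± 0.19 (SE) for Hsp90ab1, the constitutive form. Hspa1a and Hspa1b had -0.70 ± 0.69 (SE) and -0.77 ± 0.64 (SE), with TCM mouse 3 inside or just above the control range and TCM mice 1 and 4 below it. TCM mouse 2 lay inside that range for Hspa1a (8.30 CPM) and below it for Hspa1b (73.6 CPM).

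Single mice also moved the count. An alternative chosen after seeing the data left out both libraries of TCM mouse 3. In that fit 5 of 10 genes were called lower in TCM peri-tumor tissue, where 4.22% of all tested genes were. These were Hsph1 (-1.77 on the log2 scale, edgeR adjusted p = 0.0225), Hspa8 (-1.22, 0.0245), Hsp90aa1 (-1.04, 0.0131), Dnajb1 (-1.04, 0.00909) and Dnaja1 (-0.76, 0.0169). Leaving out both libraries of control mouse 4 instead also gave 5 of 10 genes, with 11.5% of all genes called lower. That mouse was the lowest of its group for 6 of the 10 genes in peri-tumor tissue and the highest for 2. Leaving it out therefore enlarges the fall of those 6 by construction. The share of chaperone genes called therefore moved from close to that of all genes to well above it with 1 mouse, and a mouse left out for its high values of these genes makes their difference larger by construction.

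**Figure D4:**
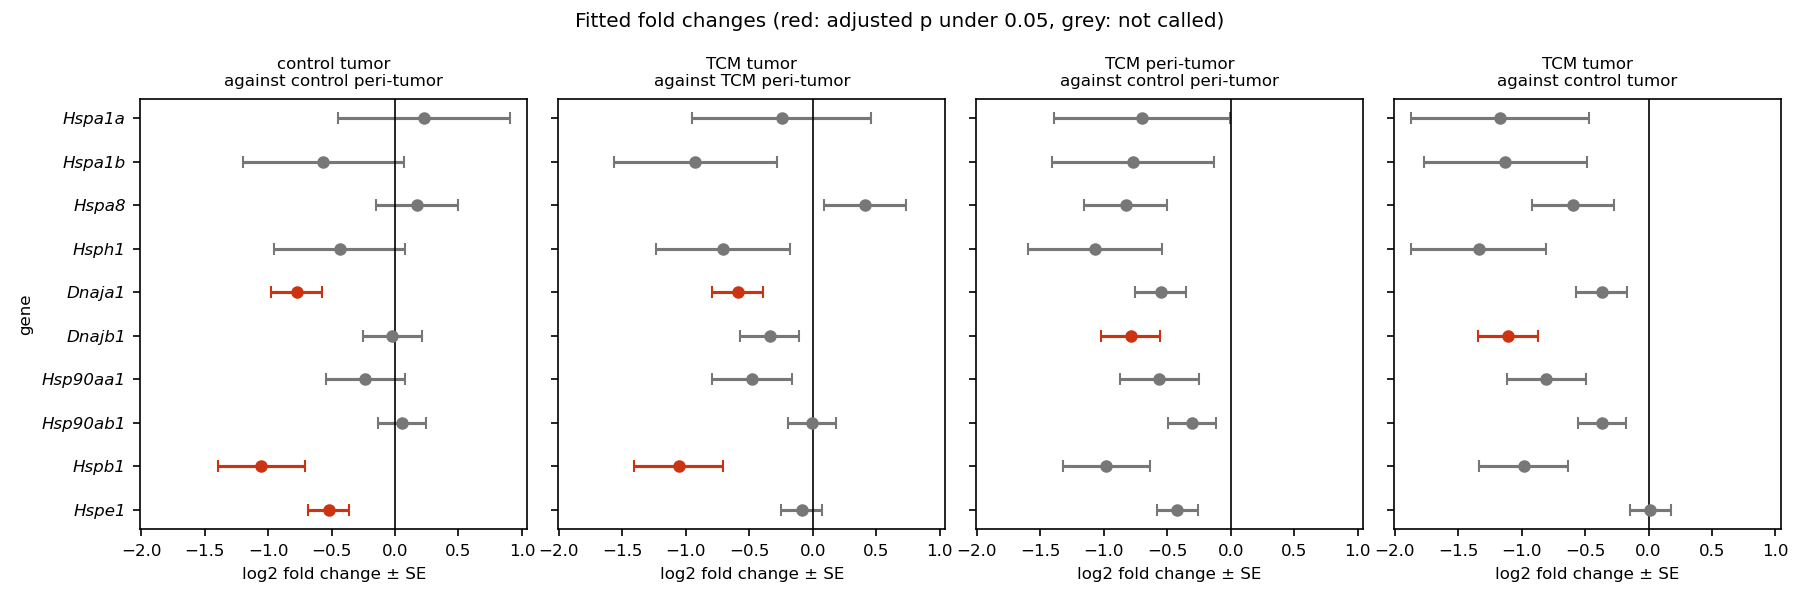
Fitted log2 fold change (points) and SE (bars) of each gene in the 4 comparisons, red where the adjusted p was under 0.05. Values of TCM against control lie below 0 for 10 of 10 genes in peri-tumor tissue and 9 of 10 in tumor, with Dnajb1 called in both.

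In tumors, too, TCM mice had less Dnajb1 RNA than control mice, and it was again the only one of the 10 genes called. Dnajb1 had 65.7, 60.1, 59.7 and 50.9 CPM in control tumors and 25.8, 26.4, 37.8 and 19.6 in TCM tumors. The highest TCM tumor lay below the lowest control tumor, and the mean fell from 59.1 ± 6.12 to 27.4 ± 7.57 CPM (SD, n = 4). The log2 fold change was -1.11 ± 0.24 (SE) (edgeR adjusted p = 0.0137), and the call remained in each of the 8 fits that left out 1 library (edgeR adjusted p 0.0142 to 0.0420). Dnajb1 was 1 of 10 genes called, where 7.28% of all tested genes were called and 2.72% called lower, and 1 of 10 with groups that did not overlap in this direction, where 7.04% of all genes lay apart.

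Counting Dnajb1, 9 of 10 genes had log2 fold changes below 0, as had 49.7% of all tested genes, and none of the other 8 was called. Hsp90aa1 had 148, 143, 173 and 119 CPM in control tumors and 73.0, 75.3, 121 and 65.1 in TCM tumors, where only TCM mouse 3 reached the control range (-0.80 ± 0.31 (SE), edgeR adjusted p = 0.127). Hsph1 again had the lowest value, -1.34 ± 0.53 (SE) (edgeR adjusted p = 0.132), and Hspb1 had -0.98 ± 0.35 (SE) (0.0979). At an unadjusted p under 0.05, 4 of 10 genes were lower (Hsp90aa1, Hsph1, Hspb1 and Dnajb1), where 11.3% of all genes were. Hspe1 had 0.01 ± 0.16 (SE), with 58.6 to 82.0 CPM in control and 57.9 to 82.5 in TCM tumors. Without both libraries of TCM mouse 3, 4 of 10 genes were called lower, where 0.881% of all genes were: Hspa1b (-2.08, edgeR adjusted p = 0.0352), Hsph1 (-1.92, 0.0316), Dnajb1 (-1.30, 0.00663) and Hsp90aa1 (-1.04, 0.026). This fit was chosen after seeing the data. The mouse had the highest tumor value of its group for 10 of 10 genes, so larger falls of these genes follow by construction and the share of all genes is no like measure. Both treatment comparisons were made against the control libraries of the same 4 mice, and the 2 tissues come from the same mice, so they are not independent of each other.

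In the median over the 10 genes, the chaperone genes varied between mice by more than the median gene in each group. Single genes varied by less in some groups. These were Hsp90aa1 and Dnajb1 in control peri-tumor tissue, Hsp90ab1, Dnaja1 and Dnajb1 in control tumor and Hspe1 in TCM peri-tumor tissue. The median SD of log2 CPM among the 4 libraries of a group was 0.61 for the 10 genes in TCM peri-tumor tissue, against 0.18 over the 10152 genes that averaged 5 CPM or more. In TCM tumor it was 0.39 against 0.20, in control peri-tumor tissue 0.33 against 0.22 and in control tumor 0.26 against 0.18. Averaged over the 10 genes, TCM mouse 3 lay 0.83 above its group mean in peri-tumor tissue and 0.80 in tumor on the log2 scale, and TCM mouse 4 lay at -0.68 and -0.50. Hspa8, Hsp90ab1, Hsph1 and Dnaja1 deviated to the same side in both tissues in 7 of 8 mice, and Dnajb1 in 4 of 8. Over the genes of at least 5 CPM the median was 5 of 8 mice, and 9.17% of them reached 7 or 8.

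**Figure D5:**
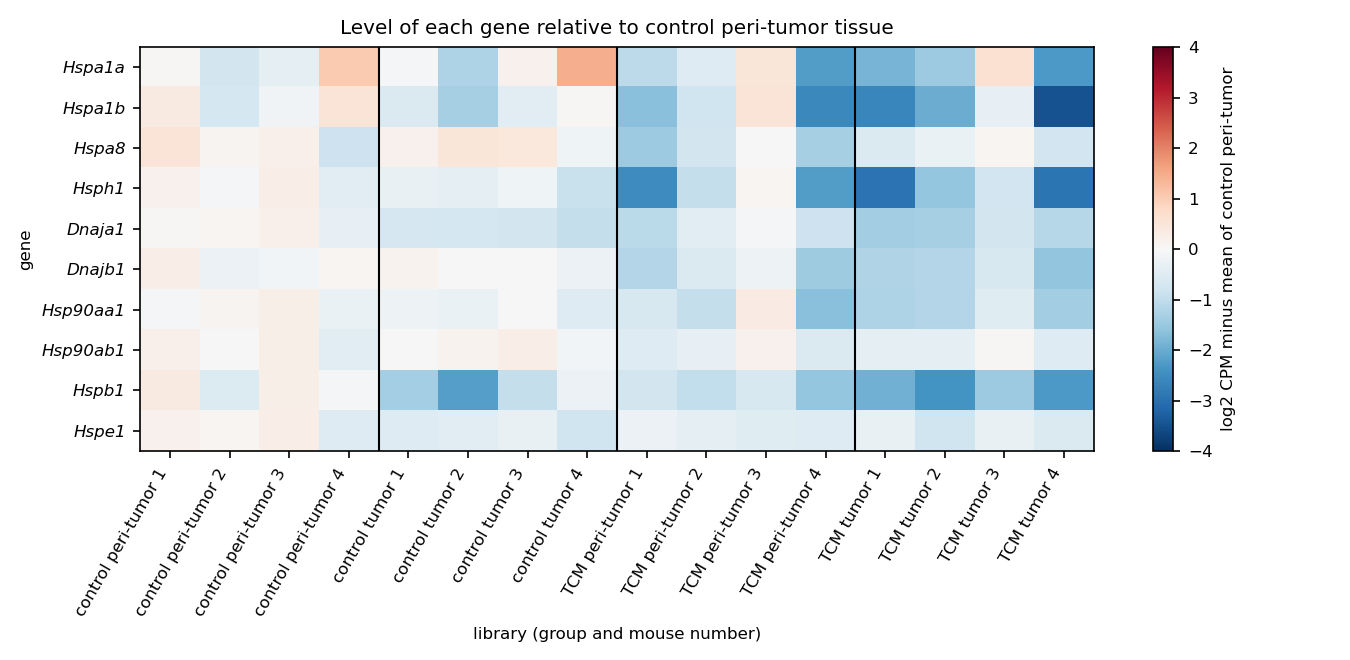
Log2 CPM of each gene in each library minus the gene's mean in control peri-tumor tissue (red, higher; blue, lower), libraries in order of group and mouse number. Within each TCM tissue the columns of mice 1 and 4 are the bluest for Hspa1b and Hsph1, and TCM mouse 3 has the highest value of its group for 9 genes in peri-tumor tissue and 10 in tumor.

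With the group means removed, the 45 pairs of genes had a median Pearson correlation of 0.58 over the 16 libraries (Spearman 0.52), from -0.23 to 0.96, with 28 pairs above 0.5. These points share mice, 2 libraries for each of 8, and the scaling of each library, so the values are descriptive. Hsph1 had the highest median correlation with the other members, 0.78, and Hspe1 the lowest, 0.12, while both have a window with a run of 3 alternating units. Hspb1 was also set apart at 0.25. Without control mouse 4, in which Hspa1a and Hspa1b were high and most others low, the median over pairs was 0.76. Among 10136 other tested genes of at least 5 CPM, the 5 most like the mean of the chaperone genes were P4ha1, a subunit of the enzyme that hydroxylates collagen prolines (Pearson 0.95), Supt7l (0.92), Gm5844 (0.87), Mto1 (0.87) and Golph3l (0.86). Gm5844 is one of the Hsp90aa1 pseudogenes above, and reads of Hsp90aa1 placed there cannot be told apart from its own. P4ha1 had 8.99, 19.0, 33.1 and 8.12 CPM in TCM peri-tumor and 10.6, 16.6, 24.1 and 8.62 in TCM tumor tissue, with mouse 3 highest in both.

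Ratios between partner chaperones were also compared. On the log2 scale of deposited FPKM, Hsp90aa1 relative to Hsp90ab1 was -2.81 ± 0.10 (SD, n = 4) in control tumors and -3.27 ± 0.16 in TCM tumors, and these groups did not overlap (-2.90 to -2.72 against -3.37 to -3.03). In peri-tumor tissue the same ratio was -2.50 ± 0.19 in control and -2.92 ± 0.56 in TCM mice, with overlap. The ratio of Hspe1 to Hspd1, the lid to the barrel of the mitochondrial chaperonin, was -0.84 ± 0.12 in control and -1.26 ± 0.16 in TCM peri-tumor tissue, without overlap, and -0.96 ± 0.12 and -0.94 ± 0.30 in tumors. The summed inducible HSP70 genes relative to Hspa8 overlapped in each comparison of groups, at -0.48 ± 0.96 and -0.72 ± 0.73 in peri-tumor tissue and -1.21 ± 0.89 and -2.12 ± 0.96 in tumors of control and TCM mice. In tumor against peri-tumor tissue the groups overlapped for each ratio. Of the 50-base words in the longest transcript of Hspd1, 44.8% also occur in other genes, so the ratio to Hspd1 is uncertain. The same share was 58.5% for Hsp90aa1 and 52.7% for Hspa8, so the ratios with these genes are uncertain too. No test was made of the ratios.

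Of 20 HSP90 co-chaperones, all tested, 3 fell in TCM peri-tumor tissue and 0 rose, where 7.35% of all tested genes were called lower. Fkbp5, a co-chaperone of steroid receptors and a known target of the glucocorticoid receptor, had 134, 152, 128 and 61.5 CPM in control and 15.5, 25.6, 21.1 and 27.9 in TCM peri-tumor tissue. Every TCM library lay below every control library, TCM mouse 3 was not high, and the log2 fold change was -2.40 ± 0.28 (SE) (edgeR adjusted p = 0.000189). Fkbp4, its relative in the same complexes, and Ahsa1, which activates HSP90's ATPase, fell by 0.65 and 0.55 on the log2 scale (edgeR adjusted p = 0.0409 and 0.0247). In TCM tumors Fkbp5 alone fell (-1.03 ± 0.27 (SE), edgeR adjusted p = 0.0311), where 2.72% of all genes were called lower. Between tissues, 6 co-chaperones fell and 0 rose in control tumors, led by Pih1d1 at -0.74 ± 0.13 (SE) (edgeR adjusted p = 0.000217), and 3 fell and 2 rose in TCM tumors, Fkbp5 rising by 1.15 (edgeR adjusted p = 0.00406). Of all tested genes, 21.2% were called lower and 22% higher in control tumors, and 15.6% lower and 17.3% higher in TCM tumors.

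Of 10 mitochondrial chaperones and proteases, which share a compartment with the product of Hspe1, 4 rose and 0 fell in TCM peri-tumor tissue (Clpx, Trap1, Grpel2 and Hspa9), where 6.71% of all tested genes were called higher. Trap1, the mitochondrial HSP90, had 135, 136, 139 and 147 CPM in control and 181, 179.6, 174 and 174 in TCM peri-tumor tissue, groups without overlap (0.35 ± 0.08 (SE), edgeR adjusted p = 0.0116). Clpx, the unfoldase of a mitochondrial protease, had 49.4, 73.8, 48.2 and 57.3 CPM in control and 324, 146, 162 and 84.7 in TCM tissue, with mouse 1 highest (1.65 ± 0.34 (SE), edgeR adjusted p = 0.00686). Trap1 and Clpx also rose in TCM tumors, where 4.55% of all genes were called higher, by 0.42 and 1.29 (edgeR adjusted p = 0.00836 and 0.0347). In tumor against peri-tumor tissue, 5 of the 10 fell and 1 rose in control mice and 7 fell and 0 rose in TCM mice (21.2% and 15.6% of all genes were called lower), among them Hspd1 at -0.39 and -0.42.

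In the remaining chaperone lists the calls for treatment stand beside 7.35% of all genes called lower in peri-tumor tissue and 2.72% in tumor. The shares called higher were 6.71% and 4.55%. Between tissues, 21.2% were called lower and 22% higher in control mice, and 15.6% and 17.3% in TCM mice. Among 9 other small heat shock protein genes, 4 of them tested, Hspb8 fell in TCM peri-tumor tissue (-0.64 ± 0.10 (SE), edgeR adjusted p = 0.0018), and Hspb8 and Hspb6 fell in tumors of both treatments, Hspb8 by 1.04 in control and 0.65 in TCM mice. Hspb6 was called higher in TCM than in control tumors (0.73 ± 0.21 (SE), edgeR adjusted p = 0.046). Of 15 other HSP70, HSP110 and exchange factor genes, Bag4 rose and Hspa2 fell in TCM peri-tumor tissue and 1 fell in TCM tumor, the HSP110 gene Hspa4l at -0.84 ± 0.22 (SE) (edgeR adjusted p = 0.0328). Of 13 other J-domain genes, Dnaja4 fell in TCM peri-tumor tissue (-0.80 ± 0.18 (SE), edgeR adjusted p = 0.0113), and Dnaja2 and Dnajb6 fell in TCM tumor. Endoplasmic reticulum chaperones (14 genes) and the TRiC chaperonin with prefoldin (14 genes) had 0 calls in either treatment comparison in edgeR. At an unadjusted p under 0.05 in edgeR they held 3 and 0 genes in peri-tumor tissue and 3 and 2 in tumor. All of these were lower in TCM mice, where 15.2% of all tested genes were lower at that threshold in peri-tumor tissue and 11.3% in tumor. Of the 6 tested genes of the HSF family and its regulators, 0 were called for treatment in edgeR, with 1 at an unadjusted p under 0.05 in peri-tumor tissue and 0 in tumor. Hsf1 itself had 12.8, 12.9, 14.4 and 10.7 CPM in control and 10.97, 8.84, 10.5 and 11.6 in TCM peri-tumor tissue, and its RNA level says nothing of how much of the protein is active. Ier5, which enhances HSF1 activity, rose in tumors by 1.13 in control and 1.38 in TCM mice (edgeR adjusted p = 0.000566 and 0.000216). In the same list Sirt1, a deacetylase of HSF1, fell in tumors of both, at -0.51 and -0.60, and Hsf4 fell in control tumors (-0.60). Among 8 other stress genes with heat shock elements, Hmox1, the heme-degrading enzyme, and the polyubiquitin gene Ubb fell in TCM peri-tumor tissue, by 1.75 and 0.38 on the log2 scale (edgeR adjusted p = 0.00397 and 0.0313).

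Markers of other cells differed in the same comparisons. Of all tested genes, 7.35% were called lower and 6.71% higher in TCM peri-tumor tissue, and 2.72% and 4.55% in TCM against control tumors. Between tissues the shares were 21.2% lower and 22% higher in control mice, and 15.6% and 17.3% in TCM mice. In TCM peri-tumor tissue 8 of 10 Kupffer cell markers were called lower, with a summed 302 to 399 CPM against 619.9 to 1377 in control, and none of the 10 was at 0. In bulk tissue, fewer cells of a type and less RNA per cell cannot be told apart. In control tumors 10 of 10 Kupffer markers fell and 8 of 9 markers of recruited macrophages rose (summed CPM 183 to 221 in peri-tumor and 1112 to 2663 in tumor tissue), and 7 of 9 proliferation genes rose. Of 11 hepatocyte markers, 6 fell and 2 rose in control tumors (median log2 fold change -1.49) and 7 fell and 1 rose in TCM tumors (-0.71), while their summed CPM was 79830 to 116500 in control peri-tumor and 111200 to 153600 in control tumor tissue. In TCM against control tumors, 3 of 9 recruited macrophage markers fell and 4 of 9 proliferation genes rose. Of 17 circadian clock genes, 3 rose and 2 fell in TCM peri-tumor tissue. At an unadjusted p under 0.05 in edgeR, 12 of the 17 differed there (8 of them lower), where 29.6% of all tested genes did. In TCM against control tumors 7 of the 17 did (4 of them lower), where 24.7% of all genes did. Per2, named after its values were seen, had 53.4, 71.7, 58.6 and 24.6 CPM in control and 4.10, 14.4, 14.0 and 17.1 in TCM peri-tumor tissue, so that the groups did not overlap, and the sources used here give no hour of collection. The share of mitochondrial counts was 4.49% to 5.22% in control and 4.86% to 7.46% in TCM peri-tumor tissue, and lower in tumors, at 2.46% to 3.61% and 2.87% to 4.22%, without overlap with the peri-tumor libraries of the same treatment. The part of any of these in the values of the chaperone genes was not tested.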

How the data were processed

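RNA of 16 liver libraries (8 HrasG12V mice, tumor and peri-tumor tissue) was prepared with a stranded mRNA kit from 1.3 micrograms of total RNA, per the labels' protocols. The deposited count table holds whole-number counts of reads per gene, which the authors did not scale, per the file headers. FPKM values were also deposited by the authors, 1 file per library, and equalled counts per length and total within 0.00579% over 11980 genes. The submitters' processing notes name mm9 and mm10, and no source used here names an aligner or counter. Coordinates and lengths are from GENCODE M21 (GRCm38), promoter windows from RefSeq (GRCm38.p6). Genes with no symbol (115) held at most 0.0171% of a library.

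Counts were tested with edgeR 4.0.16 in R 4.3.3: TMM factors, filterByExpr (count minimum 10), a single model of all 16 libraries (group means, residual degrees of freedom 12), quasi-likelihood testing of 14865 genes, Benjamini-Hochberg adjustment per comparison, called at an adjusted p under 0.05. CPM are counts over the TMM-scaled total, and log2 CPM use a prior count of 2. SE was derived from the F statistic. The test was tested on simulated data with 200 changed genes. Depth was 13947483 to 16194224 counts, and libraries of a group differed beyond sampling noise (chi-square per degree of freedom at least 16.93).

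Tumor and peri-tumor libraries are paired by the animal codes of the labels. With group means removed, the 2 libraries of a mouse correlated at 0.043 to 0.24, and 7 of 8 mice correlated best with themselves. Mice of different treatments share only a number. The labels do not say that mice were from separate litters or cages. The p-values of the group model use the spread between libraries of a group and take the 2 libraries of a mouse as independent. Those of the fit with the mouse as a block use the spread of the tissue difference among mice.

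Named were the 10 chaperone genes, and of each chaperone or stress list up to 3 called genes with the lowest p and at least 5 CPM and its extremes, of other lists counts, and the 5 genes most like the mean of the 10. Members, lists and tests were chosen with earlier results of these data known. Dnaja2, Dnajb6 and genes named beside a count of 5 or fewer follow from their counts. The alternatives tried were DESeq2 1.42.0, RLE factors, weighted limma-voom (limma 3.58.1), other filters, only the groups compared, blocks, Hspa1a and Hspa1b summed, libraries left out and, added after seeing the data, TCM mouse 3 left out, pseudogene counts added and the longest transcript as length.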

Additional observations from a re-analysis of the deposited data

Results flagged for a closer look

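The 40 sets of 4 libraries (10 genes in 4 groups) were searched for a single library far from the other 3, a search that marks about 1 in 20 sets by chance. The search used log2 CPM and found 1. Dnaja1 in control tumors was 88.06 CPM in library 4, below the other 3 at 102.5 to 105.6, a gap of 0.833 of the whole range on the log2 scale and 0.82 on the CPM scale, of which only the first is beyond Dixon's limit. On the CPM scale the search would have found Hspa1a in TCM tumors instead (gap 0.876 on that scale, 0.708 on the log2 scale), where the library of mouse 3 is highest. Dnaja1 kept its call in control tumor against peri-tumor tissue without control tumor library 4 (log2 fold change -0.73, edgeR adjusted p = 0.0168).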

How the results depend on the processing

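No called chaperone gene changed direction under any alternative run. The counts given here are of the 10 genes unless all genes are named, and they stand beside 3 (control tumor against peri-tumor), 2 (TCM tumor against peri-tumor), 1 and 1 (TCM against control in peri-tumor and tumor tissue) and 0 (difference of tumor effects), with 6415, 4897, 2091, 1082 and 165 of all genes. DESeq2 called 2 in peri-tumor tissue for treatment, and 1805 and 806 of all genes for tumor treatment and the difference. Limma-voom called 0 between TCM tissues, 8 and 2 for treatment in peri-tumor and tumor tissue, and 3349, 2193 and 603 of all genes for treatment in peri-tumor tissue, in tumor and the difference. Without a filter there were 1 and 0 (TCM tissues, peri-tumor treatment), and 687 and 79 of all genes (tumor treatment, difference). With only the groups compared there were 1 (TCM tissues) and 2 (tumor treatment). With the mouse as a replicate block, which the labels support, there were 5 and 4 between control and TCM tissues and 107 genes for the difference. A block of the replicate number, which pairs different mice, gave 5 and 3 for treatment in peri-tumor and tumor tissue. Without control mouse 4 there were 5 in peri-tumor treatment, and 3434, 1877 and 714 of all genes. Without TCM mouse 3, chosen after seeing the data, there were 5 and 4 for treatment, and 1162, 412 and 47 of all genes. With pseudogene counts added, also chosen then, there was 1 between TCM tissues. The cause of these changes was not tested.

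None of the log2 values that changed sign belonged to a call. Limma-voom gave Dnajb1 0.071 between control tissues, Hsp90ab1 0.106 between TCM tissues, Hspe1 -0.002 for tumor treatment, and for the difference Hsp90aa1 0.128, Hsp90ab1 0.105, Hsph1 0.036 and Hspb1 0.416. Hsp90ab1 between TCM tissues was 0.005 with a minimum of 1 CPM in 4 libraries, 0.007 with only the groups compared, 0.013 with the mouse block and 0.063 without TCM mouse 3. Hspb1 for the difference was 0.016 with no filter, 0.019 with 1 CPM in 4, 0.111 with the mouse block, 0.013 with pseudogene counts and 0.466 without control mouse 4. Without that mouse Hsp90ab1 and Dnajb1 were -0.045 and 0.037 between control tissues, Hspe1 -0.035 for tumor treatment and Hsp90ab1 0.054 for the difference. Hspe1 for tumor treatment was -0.001 with only the groups compared and -0.052 without TCM mouse 3, and without that mouse Hsp90aa1 and Hsp90ab1 were 0.004 and 0.007 for the difference.

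Leaving out each library in turn gave 1 to 3, 0 to 3, 0 to 5, 1 to 1 and 0 to 0 of the 10 genes, and 5759 to 6704, 4098 to 4559, 1101 to 3228, 404 to 1250 and 58 to 665 of all genes, in the order above. It changed 42 signs, 0 of them of called values. The log2 values whose sign it changed are given by range. Between control tissues, Hspa1a ran from -0.443 to 0.708, Hspa8 from -0.04 to 0.359, Hsp90ab1 from -0.074 to 0.127 and Dnajb1 from -0.118 to 0.072. Between TCM tissues, Hspa1a ran from -1.328 to 0.34, Hsp90aa1 from -0.72 to 0, Hsp90ab1 from -0.13 to 0.187 and Hspe1 from -0.153 to 0.019. For treatment in tumor, Hspe1 ran from -0.06 to 0.142. For the difference, Hspa1a ran from -1.554 to 0.211, Hspa1b from -1.312 to 0.459, Hsp90aa1 from -0.483 to 0.236, Hsp90ab1 from -0.185 to 0.132, Hsph1 from -0.848 to 0.43 and Hspb1 from -0.231 to 0.417. Counts were lowest for Hspa1a and Hspb1, whose values depth limits most.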
